A study of Mus musculus with 6 samples.

Results

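Mitochondrial ribosomal proteins were taken from the deposited gene table as all genes whose name begins with Mrpl or Mrps, with the exception of names that contain -ps. Of 34709 genes in the table, 83 names began in this way, 5 of them carried -ps, and 78 genes remained, 49 named for the large subunit (Mrpl) and 29 for the small subunit (Mrps). A gene was reported if its FPKM averaged 0.5 or more across the 6 libraries, and all 78 genes met this limit. FPKM is the number of fragments divided by transcript length in kilobases and by the size of the library, which is meant to make genes of different length comparable. The lengths behind the deposited FPKM are not given in the sources used here, and counts did not always follow FPKM. In KO replicate 1 Mrpl17 had 1855 counts at 4.17 FPKM and Mrpl34 had 669 counts at 18.8 FPKM. Their median annotated transcripts were 743.5 and 607 bases long. Ranks of level between genes therefore depend on the length used. The lowest member, Mrps10, lay at 2.07 FPKM, so no member stood close to the limit.

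The libraries came from articular cartilage of mice, 3 labelled knockout (KO) and 3 labelled wildtype (WT). According to the methods of the study the mice for the comparison of ages and genotypes were male, the KO line was bought on a C57BL/6J background, and littermates served for the aged joints, which were collected at 18 months. The sources name no Cre or tissue-restricted promoter for the deletion and no treatment of either group. The methods of the study call the samples of its experiments independent, but the labels do not tie a library to an animal, so p-values measure the spread between these samples, which may be technical in part.

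The mitochondrial ribosome translates the few messages that the mitochondrial genome encodes, all of them for subunits of the respiratory chain and the ATP synthase. Its ribosomal RNAs are transcribed inside the mitochondrion from the mitochondrial genes mt-Rnr1 and mt-Rnr2, whereas its proteins are encoded in the nucleus, translated in the cytosol and imported. The large subunit joins amino acids and carries the exit tunnel, which faces the inner membrane, and the small subunit reads the message. In the deposited annotation all 78 members carried the GO term mitochondrion, 77 carried ribosome, and 75 carried a term for the mitochondrial ribosome or one of its subunits, with Mrps30, Mrps33 and Mrps34 as the exceptions. The members lay on 17 chromosomes, 11 of them on chromosome 11 and 8 on chromosome 17, and 0 on the mitochondrial chromosome.

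Total counts ranged from 52268311 to 63331135 per library, and the members took 0.216% to 0.253% of them, with 166 to 6083 counts per member and library. KO replicates 2 and 3 stood closer to each other than any other pair. Their counts differed by 5.77 times the variance of sampling noise over all genes (1.44 times with counts divided by 4, since low counts piled up at 4), against 23.7 to 85.4 times for the other 14 pairs. Over the 78 members the gap was narrower, 9.21 against 10.8 to 65.2. Although the methods call samples independent, both libraries were therefore counted as 1 sample by their mean, which left 2 KO and 3 WT samples. Results with all 6 libraries are given for the main counts of members and lists.

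The labelled tissue was checked against 12 chondrocyte markers, whose summed level was 1213 FPKM in KO replicate 1 and 524 to 714 FPKM in the other 5 libraries, with 0 of the 12 at 0 in all libraries. Blood and marrow genes were also high. The 8 erythroid markers summed to 21066 to 93794 FPKM and the 8 neutrophil markers to 25645 to 60123 FPKM. All 8 B cell markers were lower in KO at an unadjusted p under 0.05, as were 5 of 5 tested adipocyte markers, 4 of 8 erythroid, 1 of 7 macrophage and 3 of 8 T and NK cell markers, whereas 5 of 8 neutrophil markers and 1 of 8 T and NK cell markers were higher. Of all tested genes, 6.07% were lower and 7.63% higher at that p in edgeR. The 8 proliferation markers, the 8 osteoblast and osteocyte markers, the 6 tested skeletal muscle markers and the 9 tested chondrocyte markers had 0 members at that p. In bulk tissue, fewer cells of a type and less RNA per cell cannot be told apart.

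The levels of the members spanned 2.07 to 43.5 FPKM, with 39 members at 10 FPKM or more and 17 under 5 FPKM. The ranks and medians below are those of the deposited FPKM and need not hold for counts per annotated base. The median was 10.7 FPKM over genes named for the large subunit and 7.59 FPKM over those named for the small subunit. The highest means were those of Mrpl18 (43.5 FPKM), Mrps21 (41.4 FPKM), Mrps18c (32.7 FPKM), Mrpl24 (31.6 FPKM) and Mrpl12 (29.5 FPKM). Mrpl18 measured 46.1, 43.8 and 40.6 FPKM in KO replicates 1 to 3 and 38.3, 48.0 and 44.0 FPKM in the WT replicates, and Mrps21 measured 50.0, 36.2 and 35.8 FPKM in KO and 39.5, 46.7 and 40.2 FPKM in WT. The ranges of these 2 genes overlapped, so their order is not fixed by the data. The lowest means were those of Mrpl17 (3.61 FPKM), Mrps31 (3.55 FPKM), Mrps30 (3.16 FPKM), Mrps35 (2.17 FPKM) and Mrps10 (2.07 FPKM). Despite its name, Mrps30 is placed in the large subunit in structures of the mammalian mitochondrial ribosome, as is Mrps18a.

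**Figure D1:**
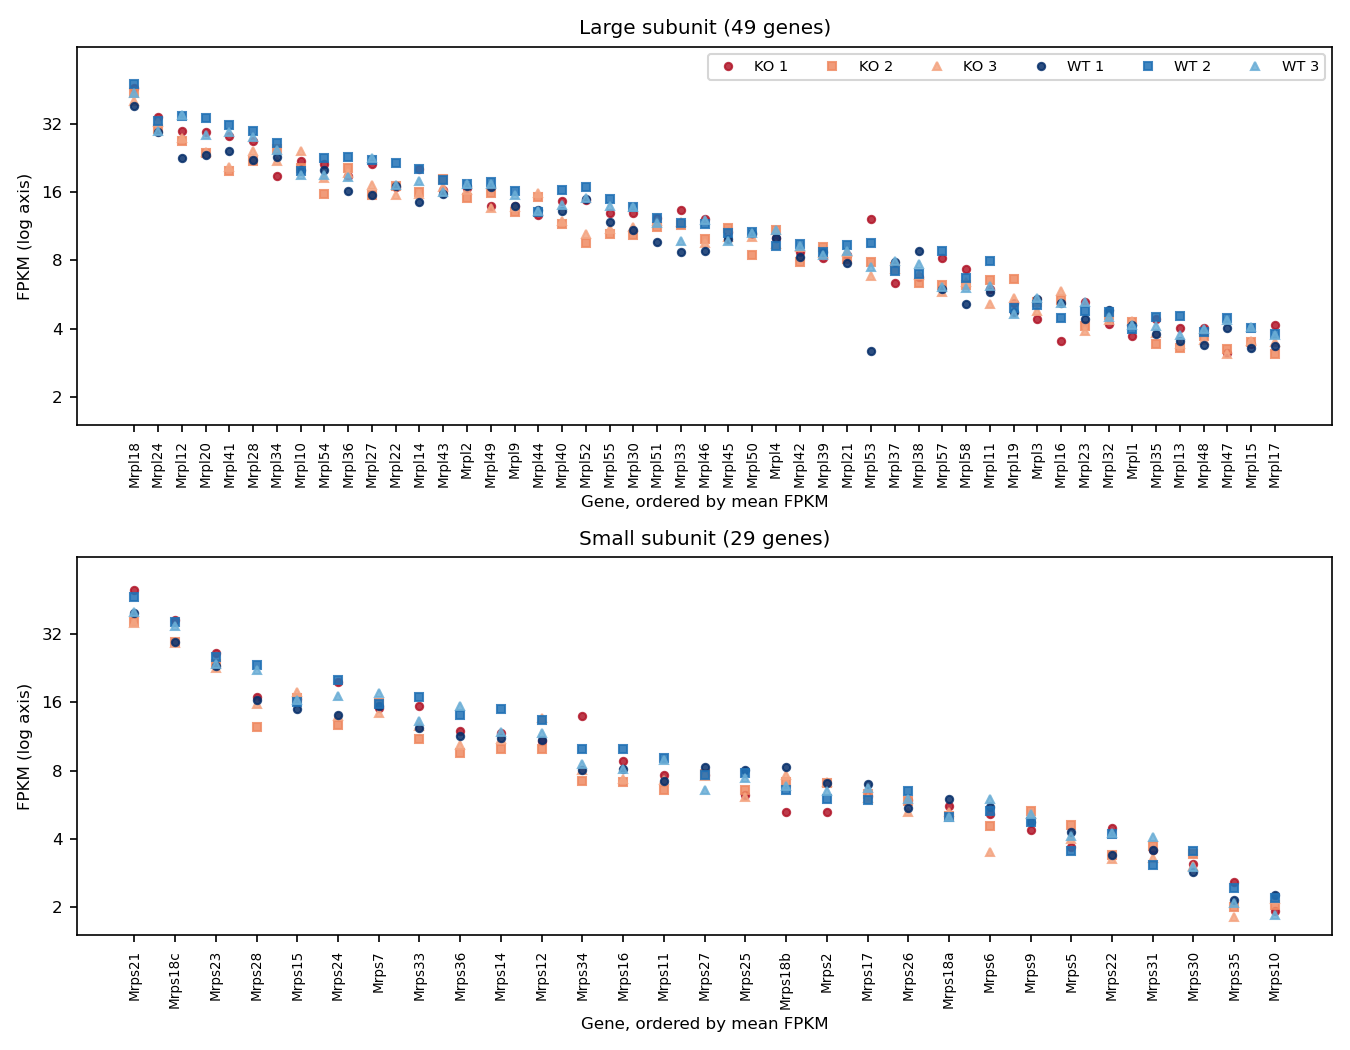
FPKM on a log axis for each of the 49 genes named for the large subunit and the 29 named for the small subunit, ordered by mean FPKM; each point is 1 library, KO in red tones and WT in blue tones. For most genes the 6 points lie close together, with Mrpl53 (3.17 FPKM in WT replicate 1 and 12.2 FPKM in KO replicate 1) spread most widely.

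Members with well-known roles were spread over this range. Of the stalk, the arm of the large subunit that receives translation factors, Mrpl12 stood at 28.6 ± 1.83 FPKM in KO and 30.8 ± 7.13 FPKM in WT (mean ± SD, n = 2 and n = 3, as for all means below). Its partner Mrpl10, which anchors Mrpl12 to the subunit, stood at 22.2 ± 0.347 and 19.6 ± 0.532 FPKM, and Mrpl11, at the base of the stalk, at 5.92 ± 0.0955 and 6.64 ± 1.15 FPKM. Within each group no library brought the FPKM of 1 stalk protein into the range of another. This order rests on the lengths behind FPKM. In KO replicate 2 Mrpl11 had 1497 counts and Mrpl10 2454, with median annotated transcripts of 663 and 1226 bases. Per annotated base, Mrpl11 thus did not lie below Mrpl10 in that library.

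Mrpl45 helps to hold the exit tunnel at the inner membrane and was one of the steadiest members, with 10.6, 11.1 and 10.2 FPKM in KO and 9.97, 10.6 and 9.78 FPKM in WT. Mrpl58, a peptidyl-tRNA hydrolase that frees stalled chains, stood at 6.81 ± 0.697 FPKM in KO and 5.95 ± 0.766 FPKM in WT. Mrps12, part of the decoding centre, stood at 11.3 ± 0.768 and 12.0 ± 1.23 FPKM. The RNA-binding Mrps27 stood at 7.67 ± 0.0203 and 7.50 ± 0.846 FPKM, and Mrps5 at 3.99 ± 0.442 and 3.98 ± 0.406 FPKM. For each of these 5 genes the KO and WT values overlapped. The paralogs Mrps18a, Mrps18b and Mrps18c had means of 5.32, 6.95 and 32.7 FPKM, and Mrps18c exceeded the other two in every library (29.3 to 37.1 FPKM).

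The sequences before the start sites of the members were searched for short motifs, since the members encode parts of 1 machine and are transcribed from separate loci. Promoters (250 bases before to 50 after the start) from RefSeq, GRCm38.p6, matched 69 of the 78 members and 9910 tested protein-coding genes, and both strands were read. The core bound by ETS family factors, CCGGAAG, stood in 24 of the 69 members (34.8%) and in 18.3% of all these promoters. The core of NRF1 (nuclear respiratory factor 1), CGCATGCG, stood in 7 (10.1%) against 3.83%, and the core of YY1, AAGATGGC, in 12 (17.4%) against 4.69%. The last 3 letters of the ETS core are the first 3 of the YY1 core, so both can lie on shared bases; 3 members held both cores, and 0 of them in this overlapped form. At least 1 of these 3 cores was found in 36 members (52.2%) and in 24.8% of all promoters. The CREB core TGACGTCA stood in 2 (2.90% against 3.12%), the TATA box TATAAA in 4 (5.80% against 7.30%) and the Sp1 core GGGCGG in 34 (49.3% against 64.1%). A match is a description of letters and not a bound site.

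Stretches of 60 bases are printed for the members of known role, of lowest p or of highest level in which 1 of the first 3 cores lay before the start and the stretch touched no annotated exon, with the core in capitals. They are written 5′ to 3′ on the strand of the gene, which for all 3 is the plus strand, and they overlap no annotated gene. The stretch of Mrpl10 is chr11:97041421-97041480 and holds the NRF1 core. That of Mrpl58 is chr11:115403692-115403751 and ends just before the start of the gene in the deposited table, with the last base of the ETS core 11 bases before the RefSeq start. That of Mrps27 is chr13:99344711-99344770 and holds the ETS core as its reverse complement, between Mrps27 and the oppositely oriented Ptcd2.
Mrpl10: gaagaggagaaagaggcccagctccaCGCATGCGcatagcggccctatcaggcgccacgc
Mrpl58: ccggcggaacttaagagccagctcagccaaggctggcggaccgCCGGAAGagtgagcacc
Mrps27: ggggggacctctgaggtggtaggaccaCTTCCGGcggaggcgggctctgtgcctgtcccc

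Many members began next to another gene on the opposite strand. A protein-coding neighbour that started within 500 bases on the other strand was found for 27 of the 78 members (34.6%), against 12.1% of 12428 tested protein-coding genes, with a median distance of 116 bases between the start sites. Examples were Mrpl49 with Fau (59 bases), which encodes a cytosolic ribosomal protein, Mrpl36 with Ndufs6 (51 bases) and Mrpl47 with Ndufb5 (157 bases), both complex I subunits, Mrpl32 with the proteasome subunit Psma2 (75 bases), Mrps12 with the mitochondrial seryl-tRNA synthetase Sars2 (222 bases) and Mrps27 with Ptcd2 (81 bases). Mrps11 and Mrpl46 are such a pair of members, 412 bases apart. Mrps11 measured 7.66, 6.60 and 7.26 FPKM in KO and 7.19, 9.13 and 8.89 FPKM in WT, and Mrpl46 measured 12.1, 9.93 and 9.60 FPKM in KO and 8.77, 11.6 and 12.1 FPKM in WT. Both genes had overlapping groups. Of the 27 neighbours, 0 had an unadjusted p under 0.05 in edgeR, against 13.7% of all tested genes. A shared start region did not mean a shared level, since Fau averaged 415 FPKM and Mrpl49 15.9 FPKM.

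The comparison of KO with WT asks whether loss of the gene changed the messages for the mitochondrial ribosome in aged cartilage. By edgeR's quasi-likelihood test (two-sided, Benjamini-Hochberg adjusted over 15373 genes), 0 of the 78 members passed an adjusted p of 0.05, with 0.308 as the lowest adjusted p, and 0% of all tested genes passed it either. At an unadjusted p under 0.05, 1 member was called (1.28%), against 13.7% of all tested genes. It was lower in KO, where 6.07% of all genes were lower and 7.63% higher at that p. Of the tested genes in the level range of the members (10081 genes), 14.9% had such a p. DESeq2 called 0 members at an adjusted p under 0.05, against 6.07% of the 14471 genes to which it gave an adjusted p. It called 2 members at an unadjusted p under 0.05, against 16.1% of all genes.

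With all 6 libraries entered as labelled, which gives KO replicates 2 and 3 separate weight, edgeR again called 0 members after adjustment (lowest adjusted p = 0.0863), against 3.71% of all genes. The unadjusted calls were then Mrpl47, Mrpl49 and Mrps25, all lower in KO, against 22.2% of all genes. In both fits the share of members with an unadjusted p under 0.05 lay below the share of all genes.

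The differences were small. The median standard error (SE) was 0.18 on the log2 scale for the members, 0.20 for all tested genes and 0.17 for those in the members' level range. The median log2 difference (KO minus WT) of the members was -0.04 and that of all genes -0.02, with 31 members above 0 and 47 below. The share above 0 was 39.7% for the members, 47.5% for all tested genes and 50.8% for those in the members' level range. The median size of the difference regardless of sign was 0.08 on the log2 scale for the members, 0.20 for all tested genes and 0.17 for those in the members' level range. The 95% confidence interval lay within -1 and 1, a 2-fold change in either direction, for 77 members (98.7%), against 69.0% of all tested genes and 82.4% of those in the level range. Mrpl53 was the exception. For 38 members (48.7%) the interval lay within -0.5 and 0.5, against 23.2% and 32.1%. Such shares depend on the size of the differences as well as on the width of the intervals. The sign of the median turned without KO replicates 2 and 3 (0.07, 52 members above 0) and without WT replicate 2 (0.03, 48 above 0), so the direction of the median depended on which libraries were entered. With all 6 libraries as labelled the median was -0.07, with 22 members above 0 and 56 below. The median of all genes was then -0.02, with 7212 genes above 0 and 8161 below.

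**Figure D2:**
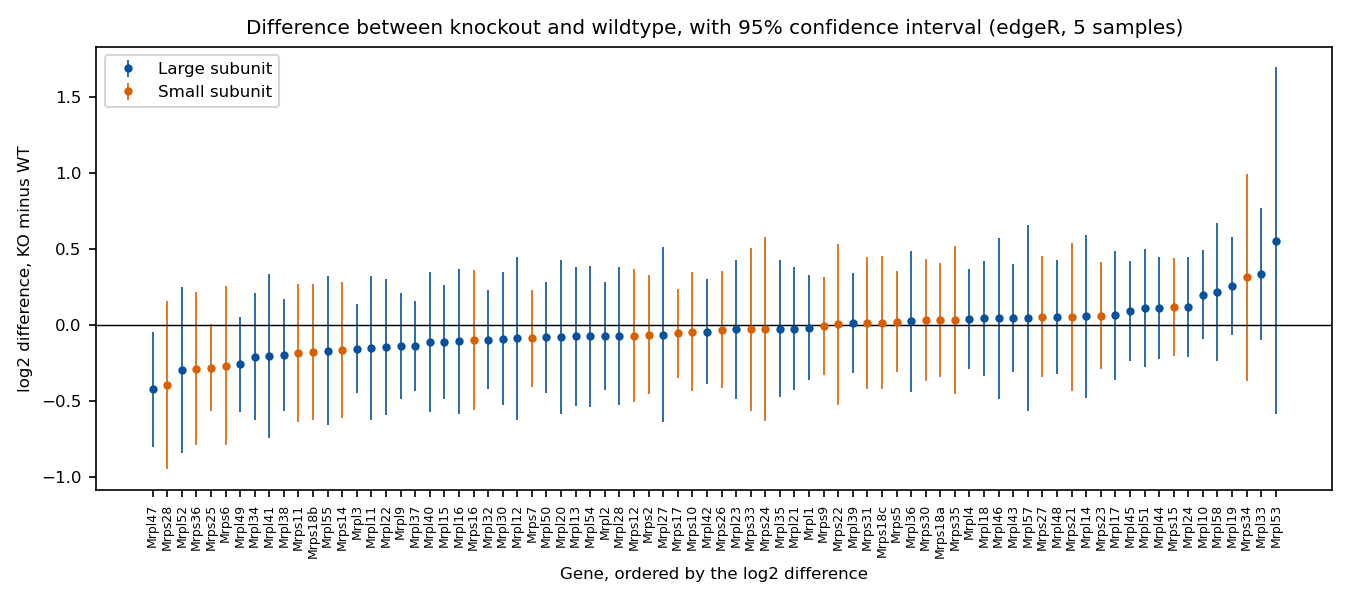
The log2 difference of KO minus WT for each of the 78 members, ordered by its value, with 95% confidence intervals from edgeR on 2 KO and 3 WT samples; blue marks the large subunit and orange the small subunit. The interval of Mrpl47 alone excludes 0 before adjustment, and that of Mrpl53 reaches from -0.59 to 1.70.

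Mrpl47, a large subunit protein near the exit tunnel at chr3:32725397-32737147, had the lowest p. It measured 3.14, 3.24 and 3.08 FPKM in KO and 4.03, 4.44 and 4.38 FPKM in WT, so that all KO libraries lay below all WT libraries. The log2 difference was -0.43 ± 0.16 (SE; unadjusted p = 0.0318, adjusted p = 0.308, edgeR). The gene overlaps Actl6a and Ndufb5 on the opposite strand, and whether the counting used strand is not given in the sources used here.

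Mrps25, a small subunit protein, measured 6.26, 6.55 and 6.10 FPKM in KO and 8.05, 7.81 and 7.43 FPKM in WT. Mrpl49, of the large subunit, measured 13.8, 15.9 and 13.6 FPKM in KO and 16.9, 17.8 and 17.4 FPKM in WT. Both lay lower in every KO library. The log2 differences were -0.28 ± 0.12 for Mrps25 and -0.26 ± 0.13 for Mrpl49 (edgeR, unadjusted p = 0.0533 and 0.0889), and neither passed the test. In the opposite direction, Mrpl19, a core protein of the large subunit, measured 5.22, 6.66 and 5.47 FPKM in KO and 4.72, 4.94 and 4.66 FPKM in WT, and its KO libraries all lay above WT. Its log2 difference was 0.26 ± 0.14 (edgeR, unadjusted p = 0.102).

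Mrpl33, a small protein of the large subunit, measured 13.4, 11.5 and 11.8 FPKM in KO and 8.69, 11.7 and 9.79 FPKM in WT, with overlapping groups and a log2 difference of 0.33 ± 0.18. Mrps28 measured 16.9, 12.5 and 15.7 FPKM in KO and 16.4, 23.5 and 22.2 FPKM in WT, and here WT replicate 1 fell among the KO values (log2 difference -0.40 ± 0.24). Mrps36, which is also known as a subunit of the α-ketoglutarate dehydrogenase complex, measured 12.0, 9.53 and 10.4 FPKM in KO and 11.4, 14.1 and 15.4 FPKM in WT (log2 difference -0.29 ± 0.21). Again WT replicate 1 stood apart from the other WT libraries and inside the KO range. The stalk protein Mrpl10 had a log2 difference of 0.20 ± 0.12 from 21.9, 20.4 and 24.4 FPKM in KO and 20.0, 19.8 and 19.0 FPKM in WT. The unadjusted p of these 4 genes ran from 0.110 to 0.217 (edgeR).

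**Figure D3:**
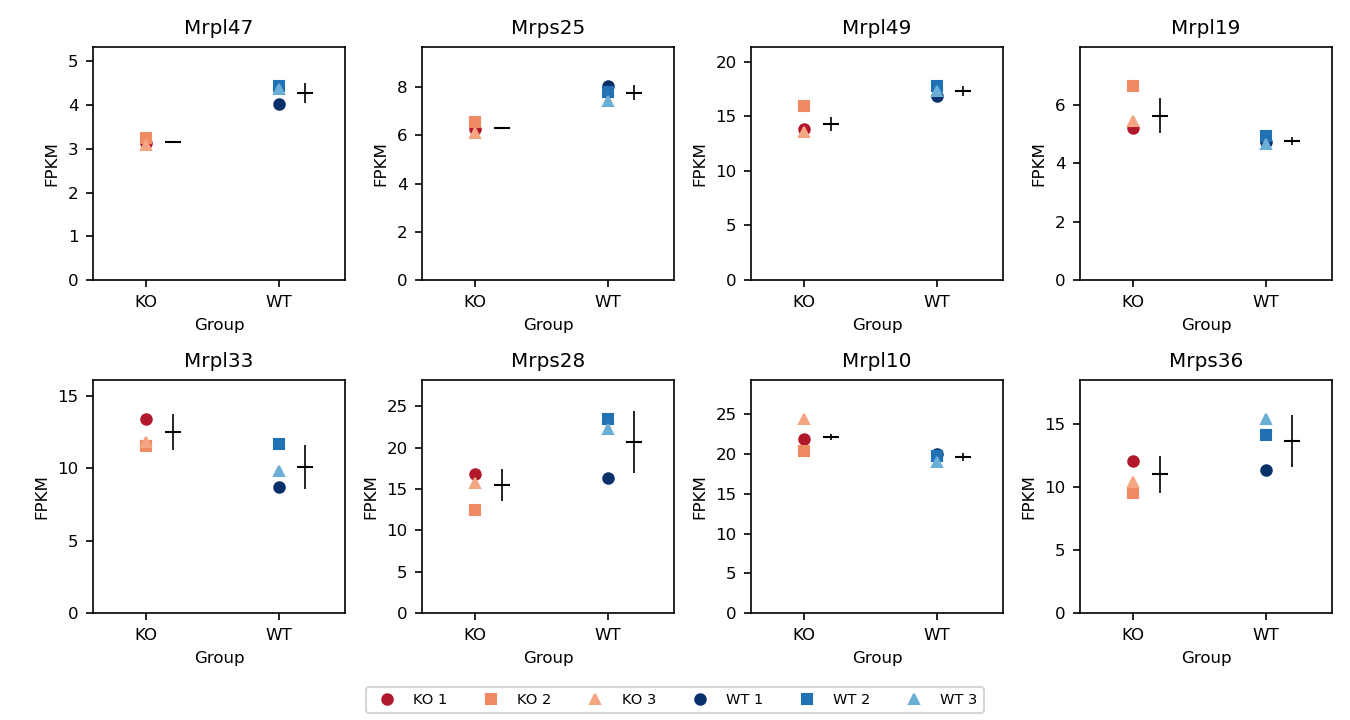
FPKM of the 8 members with the lowest p in each library, with axes from 0; points are libraries and the bars beside them are mean ± SD of 2 KO samples (replicates 2 and 3 averaged) and 3 WT samples. Mrpl47, Mrps25 and Mrpl49 lie lower and Mrpl19 higher in all KO libraries, and the KO and WT points of Mrpl33, Mrps28 and Mrps36 overlap.

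The remaining members among the largest differences varied widely within 1 or both groups. Mrpl53, of the large subunit, had the largest log2 difference, 0.55 ± 0.49, from 12.2, 7.89 and 6.81 FPKM in KO and 3.17, 9.57 and 7.46 FPKM in WT. It had the widest spread of all members, 3.85-fold between its highest and lowest library, and it overlaps Gm42688 on the same strand. When 1 library was left out, its log2 difference ran from 0.07 (without KO replicate 1) to 0.93 (without WT replicate 2). It was 0.20 without WT replicate 1. Mrps34 measured 13.9, 7.18 and 8.09 FPKM in KO and 8.04, 9.98 and 8.54 FPKM in WT (log2 difference 0.31 ± 0.29), and it overlaps Nme3 on the same strand. Without KO replicate 1 its log2 difference turned to -0.26. Mrpl52 measured 14.8, 9.55 and 10.5 FPKM in KO and 14.9, 16.8 and 15.0 FPKM in WT (log2 difference -0.30 ± 0.23). In FPKM, KO replicate 1 of Mrpl52 stood just under the lowest WT library and KO replicates 2 and 3 lay further below. In TMM-scaled counts its groups overlapped.

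On 5 samples, in TMM-scaled counts, the groups did not overlap for 3 members that were higher in KO (Mrpl10, Mrps15 and Mrpl19) and 7 that were lower (Mrpl49, Mrpl37, Mrpl38, Mrps25, Mrpl3, Mrpl32 and Mrpl47). Among all tested genes 15% were apart in the higher direction and 15% in the lower, against 3 of 78 and 7 of 78 members. With all 6 libraries as labelled, 1 member was apart in the higher direction and 6 in the lower. Mrpl10, Mrps15 and Mrpl32 then overlapped. Of all 15373 tested genes, 2105 were then apart in the higher direction and 2003 in the lower.

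Members varied little over the libraries, though only slightly less than genes of like level. The median SD over the 6 libraries (log2 of TMM-scaled counts) was 0.19 for the members. It was 0.21 for tested genes in their level range and 0.26 for all tested genes. The ratio of the highest to the lowest FPKM had a median of 1.35 over the 78 members and was under 1.5 for 62 of them, and Mrpl53 alone exceeded 2. Mrpl39 (1.12) and Mrpl45 (1.13) were the steadiest. Mrpl39 measured 8.22, 9.19 and 8.67 FPKM in KO and 8.70, 8.71 and 8.43 FPKM in WT.

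The median level of the members differed between libraries of the same label. Each member's deviation from its own mean was taken on log2 CPM (counts scaled to the library total after its TMM adjustment). The medians over the members were 0.10, -0.11 and -0.11 in KO replicates 1 to 3. In WT replicates 1 to 3 they were -0.11, 0.20 and 0.04. WT replicate 2 was the highest library for 40 members and KO replicate 1 for 20, and the lowest was KO replicate 2 for 25, WT replicate 1 for 21 and KO replicate 3 for 18. Each group thus held both a high and a low library. The 84 cytosolic ribosomal proteins, encoded by other genes and not imported, had the same 3 libraries above 0 and the same 3 below with wider gaps, at 0.32, -0.30 and -0.29 in KO and -0.21, 0.39 and 0.09 in WT. Of these 84 genes, 0 had an unadjusted p under 0.05 in edgeR, against 13.7% of all tested genes. Their median SE was 0.26, against 0.20 for all tested genes.

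**Figure D4:**
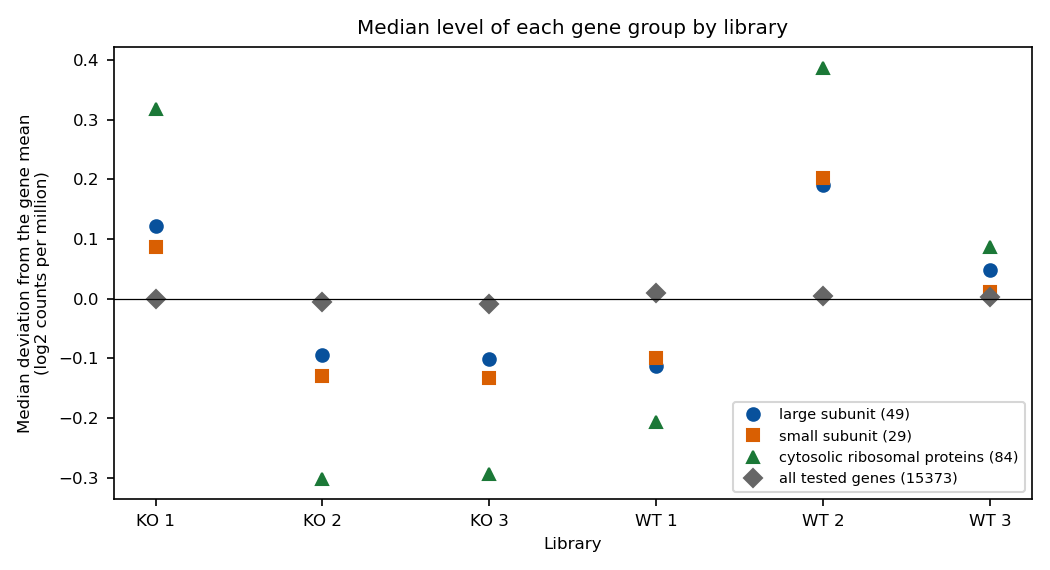
Median deviation from each gene's own mean (log2 CPM) by library for 49 large subunit genes, 29 small subunit genes, 84 cytosolic ribosomal proteins and all 15373 tested genes. KO replicate 1 and WT replicate 2 are the high libraries for both kinds of ribosome, and all genes stay near 0.

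The same gaps changed with transcript length. Members have short transcripts, with a median of 1051.5 bases against 2099.5 bases for 12450 tested genes (GENCODE vM21). The 16 members under 700 bases stood at 0.22 in KO replicate 1 and 0.26 in WT replicate 2, whereas KO replicates 2 and 3 each gave -0.19. The 23 members of 1500 bases and over stood at 0.05 and 0.15 in the first pair of libraries and at -0.05 and -0.10 in the second. Among all 941 tested genes under 700 bases the same libraries stood at 0.13, 0.13, -0.12 and -0.11, and among the 8285 genes of 1500 bases and over the signs were opposite. KO replicate 1 and WT replicate 2 also had the highest sums of chondrocyte markers, 1213 and 714 FPKM. Skeletal muscle markers summed to 142, 4.65 and 3.77 FPKM in KO and 33.3, 54.3 and 263 FPKM in WT. The part of length and of tissue make-up in the library pattern was not tested.

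**Figure D5:**
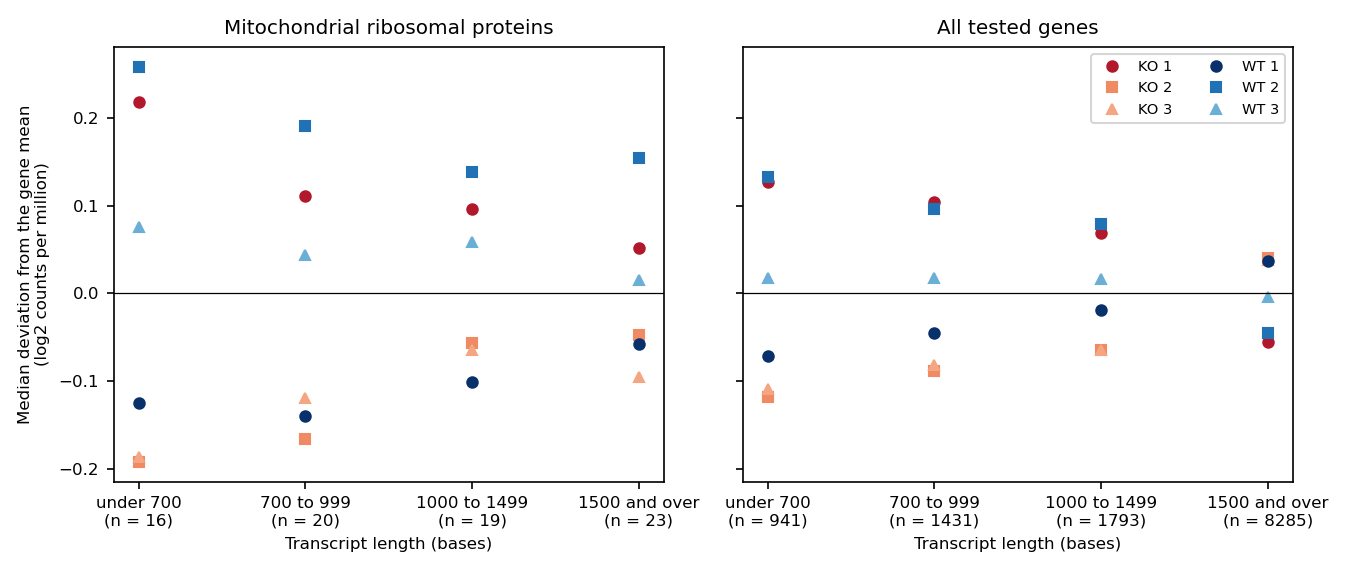
Median deviation from each gene's own mean (log2 CPM) in 4 classes of transcript length, for the 78 members and for all tested genes with a length; each point is 1 library. The gap between KO replicate 1 with WT replicate 2 and the other libraries is wider in short transcripts.

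The ribosomal RNAs of the same particle, encoded by the mitochondrial genome, were also highest in KO replicate 1 and WT replicate 2. The small subunit RNA mt-Rnr1 measured 678, 346 and 360 FPKM in KO and 411, 552 and 441 FPKM in WT, and the large subunit RNA mt-Rnr2 measured 645, 361 and 372 FPKM in KO and 482, 594 and 512 FPKM in WT. The groups overlapped for both. Their log2 differences were 0.17 ± 0.32 and -0.03 ± 0.30 (edgeR, adjusted p = 0.896 and 0.984). Libraries were made from poly(A)-selected RNA, so these values reflect the ribosomal RNA that was carried through the selection.

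Other genes that serve mitochondrial translation were described from lists. Of all 15373 tested genes, 13.7% had an unadjusted p under 0.05 in edgeR on 5 samples and 8065 had a log2 difference below 0. The list counts below are those of the same fit. Of 5 proteins of the particle that carry other names, 0 had an unadjusted p under 0.05 and 4 lay below 0. Gadd45gip1, a large subunit protein, measured 9.66, 7.81 and 7.59 FPKM in KO and 10.5, 10.8 and 11.4 FPKM in WT, and Dap3, a GTP-binding protein of the small subunit, stood at 8.01 ± 0.149 and 8.58 ± 0.879 FPKM. The log2 differences were -0.30 ± 0.17 and -0.08 ± 0.14.

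The median log2 difference of 26 assembly factors was -0.11. Of these factors, 1 had an unadjusted p under 0.05 in edgeR (3.85%, against 13.7% of all tested genes). It was Mrm1, a methyltransferase of the large ribosomal RNA, which measured 8.37, 6.20 and 6.26 FPKM in KO and 12.1, 10.7 and 13.2 FPKM in WT. Each KO library lay below each WT library, with a log2 difference of -0.69 ± 0.19 (edgeR, unadjusted p = 0.00892, adjusted p = 0.203; DESeq2, adjusted p = 0.0341). The small subunit factor Rbfa measured 41.7, 39.9 and 42.4 FPKM in KO and 30.2, 37.7 and 30.0 FPKM in WT (log2 difference 0.36 ± 0.16, edgeR, adjusted p = 0.398).

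Of 14 translation factors and messenger RNA binding proteins, 0 had an unadjusted p under 0.05, with 7 above 0 and 7 below. Slirp, which stabilises mitochondrial messages, measured 5.20, 4.71 and 4.54 FPKM in KO and 6.32, 6.81 and 6.02 FPKM in WT, and the release factor Mtrf1 2.11, 2.67 and 2.82 against 2.02, 1.66 and 1.84 FPKM. Both were apart in all libraries, Slirp lower and Mtrf1 higher in KO, with log2 differences of -0.36 ± 0.17 and 0.41 ± 0.23 that did not pass the test. Of 20 mitochondrial aminoacyl-tRNA synthetases, 0 had such a p and 16 lay below 0. Ears2, for glutamate, stood at 0.816 ± 0.130 FPKM in KO and 1.21 ± 0.116 FPKM in WT, and Cars2, for cysteine, at 3.72 ± 0.436 and 3.24 ± 0.260 FPKM. KO replicate 1 was the lowest library for 15 of these 20 genes (against 18.9% of all tested genes), the reverse of its place among the ribosomal proteins.

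Of 14 tested genes for mitochondrial transcription and its regulators, 0 had an unadjusted p under 0.05. Tfam, which packages mitochondrial DNA and starts its transcription, measured 6.82, 6.54 and 6.33 FPKM in KO and 9.08, 7.97 and 7.84 FPKM in WT, lower in each KO library (log2 difference -0.30 ± 0.14, edgeR, unadjusted p = 0.0648). Esrra, a nuclear receptor that controls mitochondrial genes, stood at 8.26 ± 0.404 FPKM in KO and 7.18 ± 0.597 FPKM in WT. Among the cytosolic ribosomal proteins the lowest p were those of Rpl39l (log2 difference -0.83 ± 0.64) and Rps27 (-0.29 ± 0.33), both with overlapping groups. With all 6 libraries as labelled, 22.2% of all genes had an unadjusted p under 0.05 in edgeR. The assembly factors and the translation factors then each held 1 higher and 1 lower gene at that p. The synthetases, the transcription genes and the proteins under other names each held 1 lower gene, and the cytosolic ribosomal proteins 0.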

How the data were processed

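The authors deposited 1 table with an FPKM value and an estimated count per gene and library; the submitters' processing notes name cutadapt 1.9, HISAT2 2.0.4, UMI-tools, StringTie 1.3.4d, DESeq2 and edgeR without their roles. FPKM values were scaled by the authors within each library. Deposited counts were whole numbers, but 4 was an over-frequent value (6596 times, with 4170 at 3 and 2332 at 5), so a count was not taken as 1 read pair. The number of per-sample columns left unused was 0. Genes that averaged 0.5 FPKM or more were tested on counts with edgeR 4.0.16 (R 4.3.3; TMM scaling, quasi-likelihood F test, Benjamini-Hochberg), after KO replicates 2 and 3 were averaged and rounded. DESeq2 1.42.0, limma 3.58.1 on log2 FPKM, other scalings and filters, and leaving out libraries were alternatives. The procedure was tested on simulated data. Deposited positions equalled GENCODE vM21 (GRCm38) at both ends for 69 of 78 members. Printed RefSeq promoters run with the gene: bases after the start stood in a GENCODE transcript of the same gene for 64 of 69 members and for 0 as reverse complements. Named genes were the 8 lowest p, the 4 highest and 4 lowest log2 differences, the 5 highest and 5 lowest levels, members of known role, and the 2 lowest p of each list. The members and lists were chosen with earlier results of these data known. The knocked-out gene is not reported here.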

Additional observations from a re-analysis of the deposited data

How the results depend on the processing

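With 2 or more samples per group, 0 members passed an adjusted p of 0.05 in edgeR or the alternatives, DESeq2 and limma included. At unadjusted p these fits called 0 to 3 members. The other alternatives of the 17 left 1 sample in a group. In limma, with median-of-ratios scaling, counts divided by 4, a minimum of 5 FPKM or a replicate block, 0 of all genes passed. The same held without KO replicate 2, KO replicate 3 or WT replicate 1, and 1 gene passed without WT replicate 2 or 3. A count of 0 members there says little about the members. Lower members at an unadjusted p under 0.05 numbered 1 in edgeR on 5 samples, 3 with 6 libraries and 2 with DESeq2. They numbered 2 with a minimum of 5 FPKM and 0 without a filter. When 1 library other than KO replicate 1 was left out, they numbered 0 to 2 (0 without WT replicate 2 or 3). All genes with such a p in either direction numbered 2106 of 15373, 3408 of 15373 and 2473 of 15366 in the first 3 settings. They numbered 1291 of 7614 with the 5 FPKM minimum, 2686 of 33520 without a filter, and 1384 to 2103 of 15373 when 1 such library was left out. Higher members numbered 0, and 0 to 1 when 1 library other than KO replicate 1 was left out. Members above 0 numbered 31, against 17 of 61 with a minimum of 5 FPKM, 52 without KO replicates 2 and 3, and 15 to 48 when 1 library was left out (15 without WT replicate 1, 18 without KO replicate 1, 48 without WT replicate 2). The median log2 difference then ran from -0.17 (without KO replicate 1) to 0.03 (without WT replicate 2), against -0.04 and -0.01 for all genes.

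Replicate numbers gave no sign of pairing (correlations of deviations -0.14, -0.11 and -0.06), which does not exclude a pairing. A replicate block on 6 libraries called 2 members at an unadjusted p under 0.05 in edgeR, against 2809 of all 15373 genes. Over all genes, calls after adjustment numbered 0 in edgeR on 5 samples, 570 with 6 libraries, 879 with DESeq2 and 21 without a filter. Of 386 values for 23 named genes, 381 kept direction and call, and the call could not change where 0 genes passed. Reversed were Mrpl52 (0.00696) and Rps27 (0.15) without KO replicates 2 and 3, Mrps34 without KO replicate 1 (-0.26, up to 0.44 when another library was left out) and Dap3 (0.00463) without WT replicate 3, and Mrm1 passed in DESeq2 alone (-0.68); the cause was not tested. Counts near the floor do not limit the members, whereas 41 pseudogenes annotated to the particle, 7 at 0.5 FPKM or more, and 24 members that overlap another expressed gene may share reads.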
